A study of Mus musculus with 21 samples.

Results

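Ileal RNA of uninjected transgenic mice that carry the vitamin D receptor (VDR) only in the distal intestine was compared with that of mice whose intestinal epithelium lacks VDR. The comparison was defined by the deposited table that holds these 2 groups, with 3 uninjected and 4 KO libraries, and it uses 7 of the 21 samples of the series. A gene was included where its FPKM, its fragments scaled by transcript length and library size, averaged 1 or more over the 7 libraries, which gave 11827 of the 21441 genes in the table. The title of the series points to the role of distal gut segments in keeping calcium in balance and mineralizing bone.

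All mice were of the C57BL6J strain, the tissue is labelled as intestinal epithelium, and neither group was treated. The KO group is Villin-CreERT2 VDR f/f, in which a Cre recombinase under the promoter of villin, an epithelial gene, removes the floxed Vdr gene in epithelial cells. It has 4 male mice, 1 of them aged 9 weeks and 3 aged 11 weeks. The uninjected group is CDX2-VDR transgenic, has no endogenous mouse VDR, and expresses human VDR under CDX2 control in the distal intestine. It has 2 females aged 9 weeks and 1 male aged 10 weeks, and the columns, numbered 1, 3 and 4, are not tied to single mice. Labelled sex, age and the way in which the mouse receptor was lost differ between the groups. Exposure of the KO mice to the agent that activates CreERT2 and the human transgene differ with them, and all of these cannot be told apart. Since no animal is named in the labels, each p-value reflects spread between samples that may be technical.

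VDR is a nuclear receptor that binds 1,25-dihydroxyvitamin D3 and, paired with RXR, regulates genes through response elements in DNA. In the intestine it is known for calcium absorption: TRPV6 lets calcium into the enterocyte, calbindin-D9k (S100g) carries it across the cell, and the pump PMCA1b (Atp2b1) exports it. VDR also induces Cyp24a1, which breaks down the hormone, and can act on genes of the Cyp3a family, which oxidise drugs, steroids and bile acids.

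Uninjected library 3 stood apart from the others before any group was compared. Its correlation with the other 6 over the genes tested, on the log2 scale, was 0.839 to 0.890, whereas every pair among those 6 reached at least 0.930. Its log2 difference from the mean of the other 6 libraries rose by 1.19 per 10% of GC content, with transcript length in the same fit. The slope was -0.35 to 0.08 for the other libraries, whose reference mean included library 3. Summed over the genes whose FPKM steps gave whole reads, library 3 had 10.4 M reads against 15.6 to 43.7 M reads. This sum leaves out the other genes. Its depth relative to KO library 1, from the same steps, was 0.486 against 0.834 to 2.50 for the other libraries. The labelled tissue was met in part. The 15 enterocyte markers summed to 16910 to 72340 FPKM, but 12 genes of the muscle layer summed to 1053 to 4200 FPKM and 12 B cell genes to 472.0 to 1055 FPKM, so the RNA was not from epithelium alone. Most of the B cell sum in every library came from Igj, the joining chain of secreted antibodies. In the check of the sex labels, Ddx3y, a gene of the Y chromosome, ranged from 10.5 to 12.7 FPKM among KO mice and stood at 0.0347, 2.32 and 8.98 FPKM in uninjected libraries 1, 3 and 4. Xist, which is expressed from the inactive X of females, did not exceed 0.102 FPKM in any of the 7 libraries. Ddx3y was thus near 0 in uninjected library 1 only, and Xist marked no library as female. The check did not bear out the labels of 2 females, and the reason was not tested.

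Vdr itself, at chr15:97684856-97741061 of the mm9 build, did not mark the groups in the way the genotypes differ. It was at 20.1, 20.6, 19.3 and 21.0 FPKM in KO libraries 1 to 4 while the uninjected libraries had 23.3, 22.1 and 24.9 FPKM. The uninjected values lay above all KO values by a small margin (log2 difference 0.21 ± 0.22 SE, limma adjusted p = 0.698; exact two-sided permutation p = 0.0571, the smallest that 35 splits allow, so this test cannot reach 0.05). A gene-level FPKM includes exons outside a deleted segment and may include reads of a human transgene, so it checks neither the deletion nor the transgene.

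Across the ileum, 1 of 11827 genes passed the threshold of an adjusted p under 0.05 (0.00846%, limma on log2(FPKM + 0.5)), and it was lower in uninjected mice. This gene was Cyp2c55. At an unadjusted p under 0.05 there were 641 genes (5.42%), of which 409 (3.46%) were higher and 232 (1.96%) lower in uninjected mice. Groups did not overlap for 1018 genes (8.61%), with the uninjected libraries above for 622 (5.26%) and below for 396 (3.35%). The median log2 difference over all genes tested was 0.01, so the scale of the groups was level. The plot of differences against level shows S100g and the transcript 5033404E19Rik far above the other genes and the cytochrome P450 genes at the lower edge.

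**Figure D1:**
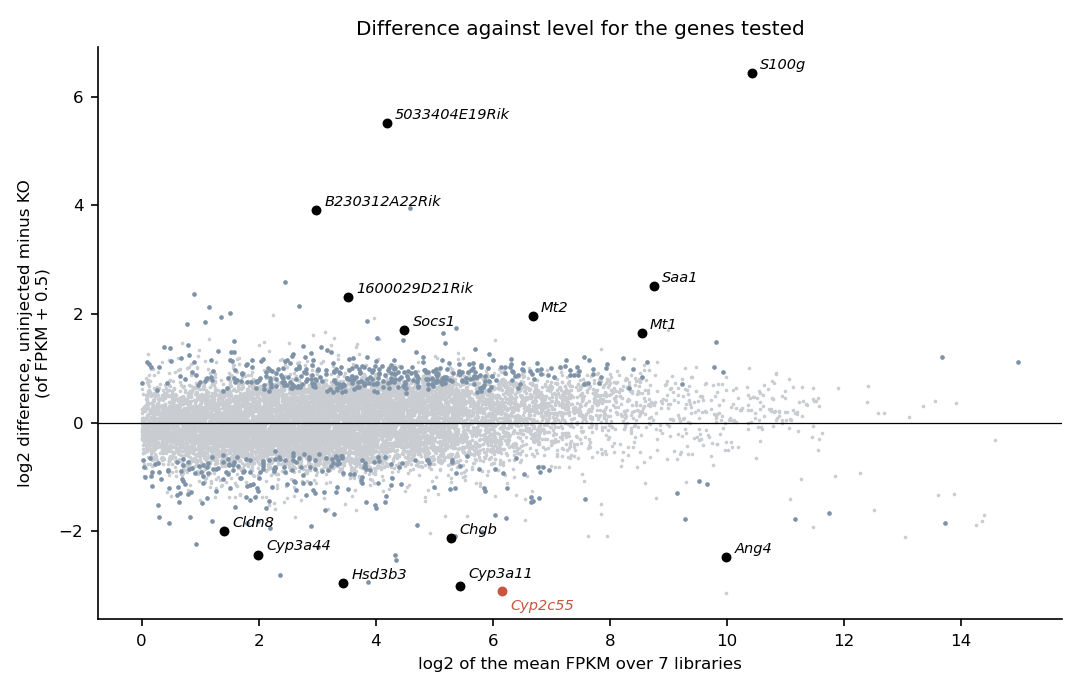
Log2 difference between uninjected and KO ileum (y axis, of FPKM + 0.5) against the log2 mean FPKM over 7 libraries (x axis) for the 11827 genes tested. Grey points are single genes, blue points have an unadjusted limma p under 0.05, black points are labelled genes and the red point is Cyp2c55, the 1 gene past the adjusted threshold, at -3.09, while S100g lies highest at 6.43.

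The cytochrome P450 genes of the Cyp3a and Cyp2c families were lower by value in uninjected mice, and they include the 1 gene that passed the threshold. Cyp2c55, at chr19:39081509-39117183 (mm9), encodes an enzyme that oxidises arachidonic acid and is known as a target of the xenobiotic receptors CAR and PXR. It was at 99.7, 107, 132 and 121 FPKM in KO libraries 1 to 4 and at 20.1, 11.5 and 9.34 FPKM in uninjected libraries 1, 3 and 4. Every uninjected library was thus far below every KO library, and the means were 115 ± 14.3 FPKM (SD, n = 4) and 13.6 ± 5.68 FPKM (SD, n = 3). Cyp2c55 fell by 3.09 on the log2 scale (SE 0.30, limma adjusted p = 0.0328). The call was lost, with the log2 difference staying between -3.16 and -3.01, when any single KO library (adjusted p 0.130 to 0.241) or uninjected library 3 (0.164) was left out.

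The other members tested were Cyp3a11, Cyp3a13, Cyp3a25, Cyp3a44, Cyp2c65 and Cyp2c68. All 7 of the 7 tested genes of these families, out of 18 listed, had lower means on the log2 scale in uninjected mice, with a median log2 difference of -2.09 against 0.01 over all genes. Groups did not overlap for 6 of the 7, against 3.35% of all genes in that direction, and 1 of the 7 passed the threshold. The 11 members under the level filter were low in every library. Without uninjected library 3 the median was -1.41, with 6 of 7 lower, and without library 1 it was -2.61. The genes lie in clusters of similar copies on chromosomes 5 and 19, so reads may have been split between neighbours and the value of a single copy is uncertain.

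Cyp3a11, at chr5:146666002-146691540, is the main drug- and bile acid-oxidising CYP3A enzyme of mouse liver and gut. It was at 67.8, 90.5, 90.2 and 31.7 FPKM in KO mice and at 4.68, 11.8 and 7.92 FPKM in uninjected mice. The lowest KO value was still above the highest uninjected value (log2 difference -3.00 ± 0.44 SE, adjusted p = 0.202). Cyp3a44 was at 6.26, 7.46, 9.02 and 2.75 FPKM against 1.62, 0.213 and 0.615 FPKM, again without overlap (log2 difference -2.43, adjusted p = 0.636). Cyp3a25 was at 61.0, 61.2, 69.4 and 46.1 FPKM against 28.1, 4.92 and 16.9 FPKM, and library 3 was the lowest. Cyp2c65, a neighbour of Cyp2c55, was at 34.3 to 49.4 FPKM in KO mice and at 16.7, 13.7 and 25.4 FPKM in uninjected mice. The smallest gap was that of Cyp2c68, whose lowest KO value was 14.14 FPKM and whose highest uninjected value was 14.07 FPKM. Cyp3a13 did overlap, at 88.3 to 153 FPKM in KO mice and 101, 35.5 and 143 FPKM in uninjected mice, and its log2 difference of -0.50 became 0.08 without library 3. Nr1i2, which encodes PXR, was at 38.7 to 57.2 FPKM and at 59.7, 75.4 and 48.3 FPKM (log2 difference 0.29, adjusted p = 0.677). Among 32 tested genes of other xenobiotic metabolism, 21 were lower and 11 higher, the median log2 difference was -0.16 and none passed the threshold. The groups did not overlap for 2 of the 32, Ces1g, a carboxylesterase, and Aadac, a deacetylase, both lower, against 3.35% of all genes in that direction.

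**Figure D2:**
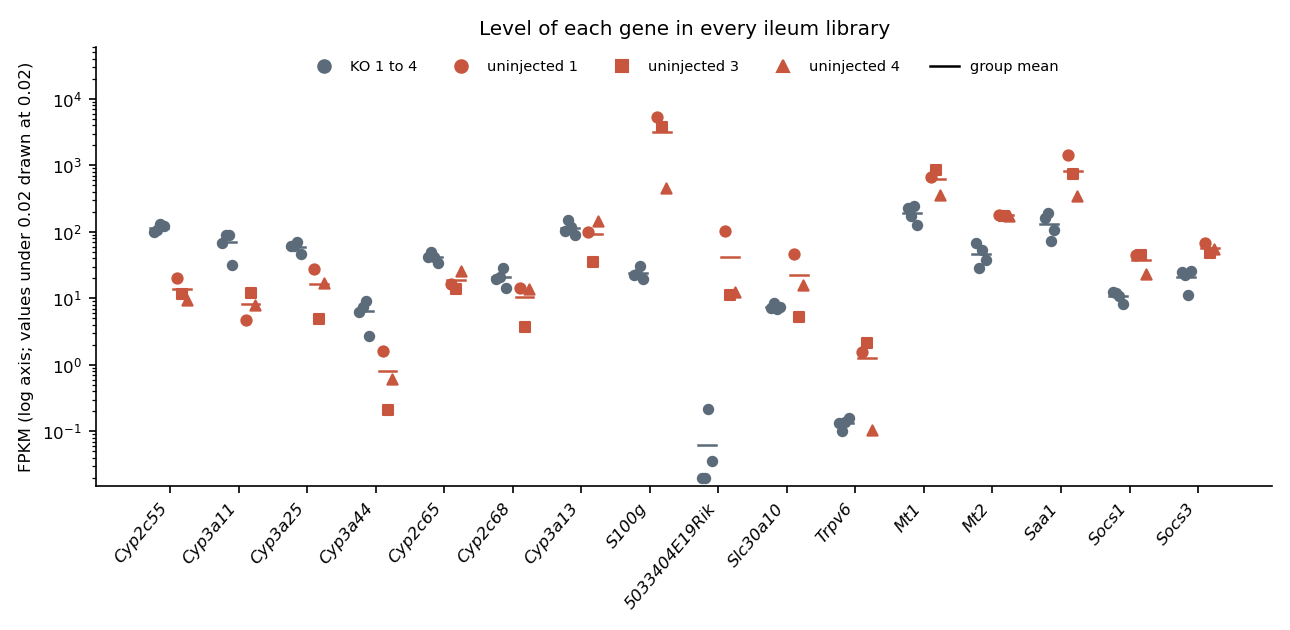
FPKM (y axis, log scale, values under 0.02 drawn at 0.02) of 16 genes in every ileum library, with grey points for the 4 KO libraries, red circles, squares and triangles for uninjected libraries 1, 3 and 4, and bars at the group means. Cyp2c55 lies at 99.7 to 132 FPKM in KO mice and at 9.34 to 20.1 FPKM in uninjected mice, while S100g lies at 19.6 to 30.2 FPKM and at 453.1 to 5345 FPKM.

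The 300 bases around the RefSeq start sites (250 before, 50 after, GRCm38.p6) are shown for genes at the upper and lower ends of the comparison, to let the sequences of S100g, Cyp2c55 and the copies Cyp3a11 and Cyp3a44 be read beside the levels. Capitals mark nuclear receptor hexamers on either strand, which were AGGTCA or AGTTCA or GGGTCA or GGTTCA. The S100g window is chrX:162964550-162964849 on the minus strand, that of Cyp2c55 is chr19:39006769-39007068 on the plus strand, and those of Cyp3a11 and Cyp3a44 are chr5:145879805-145880104 and chr5:145805825-145806124, both on the minus strand.
S100g: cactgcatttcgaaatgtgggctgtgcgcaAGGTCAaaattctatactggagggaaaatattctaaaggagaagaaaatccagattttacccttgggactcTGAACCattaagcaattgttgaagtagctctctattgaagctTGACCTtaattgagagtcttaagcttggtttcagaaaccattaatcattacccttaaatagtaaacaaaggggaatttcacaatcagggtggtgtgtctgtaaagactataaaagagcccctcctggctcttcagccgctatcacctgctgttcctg
Cyp2c55: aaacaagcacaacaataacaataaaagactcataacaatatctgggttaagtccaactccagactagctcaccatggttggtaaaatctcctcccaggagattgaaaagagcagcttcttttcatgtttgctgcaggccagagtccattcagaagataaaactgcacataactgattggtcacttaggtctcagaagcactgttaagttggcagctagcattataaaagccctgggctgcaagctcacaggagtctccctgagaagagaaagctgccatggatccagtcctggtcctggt
Cyp3a11: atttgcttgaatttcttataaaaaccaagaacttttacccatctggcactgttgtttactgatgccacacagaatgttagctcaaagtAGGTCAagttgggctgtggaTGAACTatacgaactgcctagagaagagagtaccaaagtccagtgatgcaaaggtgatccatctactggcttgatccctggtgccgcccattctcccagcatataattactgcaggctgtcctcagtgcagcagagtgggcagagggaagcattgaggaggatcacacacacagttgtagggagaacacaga
Cyp3a44: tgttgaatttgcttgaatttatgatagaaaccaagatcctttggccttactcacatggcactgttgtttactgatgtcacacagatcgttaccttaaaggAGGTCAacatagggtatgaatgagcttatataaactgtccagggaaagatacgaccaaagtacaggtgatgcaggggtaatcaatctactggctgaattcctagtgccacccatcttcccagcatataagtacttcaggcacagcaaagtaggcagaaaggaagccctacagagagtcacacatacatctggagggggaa

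S100g held 3 hexamers, Cyp3a11 held 2, Cyp3a44 held 1 and Cyp2c55 held none, while 43.7% of 32851 RefSeq promoter windows of this length held at least 1. In S100g they lay at bases -220 to -215, -149 to -144 and -107 to -102 from the start site. A direct repeat of 2 hexamers with 3 bases between them, the arrangement known as DR3 that VDR with RXR prefers, was in none of the 4 windows and in 0.0396% of all windows. Aligned end to end, the windows of Cyp3a11 and Cyp3a44 were 71.2% identical, and those of Cyp3a11 and Cyp2c55 were 46.8% identical. These matches describe letters in the windows and were not tested as binding sites.

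The calcium genes differed mainly in S100g, the cytosolic carrier, at chrX:159399924-159402531 (mm9). Its levels were 22.6, 23.2, 30.2 and 19.6 FPKM in KO mice and 5345, 3733 and 453.1 FPKM in uninjected libraries 1, 3 and 4. The lowest uninjected value was far above the highest KO value, yet the 3 uninjected mice spread widely among themselves. The log2 difference was 6.43 ± 0.74 (SE), the largest of the genes tested in absolute size, with a limma adjusted p of 0.0577 and an exact two-sided permutation p of 0.0571. It passed the threshold without uninjected library 4 (log2 difference 7.54, adjusted p = 0.00012), in the fit with weights for each library, and when only genes averaging 5 FPKM or more were tested (adjusted p = 0.0242). These were 3 of 18 alternative settings, and it did not pass in the others. The limma adjusted p was 0.2945 without uninjected library 3, 0.110 without library 1 and 0.219 to 0.260 without any single KO library.

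The entry channels were low. Trpv6 was at 0.133, 0.10, 0.139 and 0.159 FPKM in KO mice and at 1.59, 2.15 and 0.105 FPKM in uninjected mice. Libraries 1 and 3 were above all KO values and library 4 was within their range (exact two-sided permutation p = 0.229). Trpv5, its close relative of the kidney, was listed at 0 in all 7 libraries. Atp2b1, the basolateral calcium pump, was at 42.8 to 58.8 FPKM in KO mice and at 135, 11.1 and 34.0 FPKM in uninjected mice, with library 1 above and the other 2 below. Its log2 difference of -0.42 became 0.43 without library 3. Of 9 tested members of the 17-gene calcium list, 6 were higher and 3 lower with a median log2 difference of 0.34, none passed the threshold, and S100g was the 1 gene without overlap, against 5.26% of all genes in that direction. Without library 3, 8 of the 9 were higher. Cyp24a1, at chr2:170308208-170322645, was listed at 0 in 3 KO libraries and at 0.0117 FPKM in the fourth, against 0.173, 0.482 and 0.00774 FPKM in uninjected mice (exact two-sided permutation p = 0.114). All of these levels are near the floor of the data.

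A second transcript with a large difference was 5033404E19Rik, which RefSeq gives as a transcribed pseudogene between Slc30a10 and Lyplal1. It was listed at 0 in KO libraries 1 and 2, at 0.214 and 0.0358 FPKM in KO libraries 3 and 4, whereas the uninjected mice had 103, 11.4 and 12.6 FPKM. All uninjected values were thus more than 11 FPKM and all KO values under 1 FPKM (log2 difference 5.51 ± 0.68 SE, adjusted p = 0.0713). Its neighbour Slc30a10 encodes a manganese exporter at the apical membrane and is known as a vitamin D-responsive gene. Slc30a10, at chr1:187278727-187292641 (mm9), was at 7.06, 8.57, 6.86 and 7.43 FPKM in KO mice and at 46.7, 5.16 and 15.7 FPKM in uninjected mice. Libraries 1 and 4 were above all KO values and library 3 was below them (log2 difference 1.03, adjusted p = 0.665; exact two-sided permutation p = 0.286). The sixth gene of the submitters' qPCR panel, Slc37a2, a sugar-phosphate exchanger, overlapped between groups at 0.645 to 4.57 FPKM and at 1.40, 1.13 and 0.739 FPKM (exact two-sided permutation p = 0.629). Adjusted over the 6 permutation tests of the panel genes above 0 and Vdr, p ranged from 0.171 to 0.629.

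The metallothioneins, small proteins that buffer zinc and copper, were higher in uninjected mice by value. Mt2 was at 67.6, 28.8, 53.9 and 38.2 FPKM in KO mice and at 181, 176 and 172 FPKM in uninjected mice, which lay close together. Its mean of 47.1 ± 17.1 FPKM (SD, n = 4) compared with 176 ± 4.64 FPKM (SD, n = 3; log2 difference 1.97 ± 0.33 SE, adjusted p = 0.430). Mt1 was at 228, 171, 241 and 125.03 FPKM against 657, 835 and 356 FPKM, also without overlap (log2 difference 1.65, adjusted p = 0.665). The zinc transporters Slc30a2 (5.25 to 11.3 against 16.9, 12.2 and 13.1 FPKM) and Slc39a5 (67.0 to 101.5 against 153, 380 and 102.2 FPKM) did not overlap either. Of the 13 genes of zinc and manganese handling, 8 were higher and 5 lower with a median log2 difference of 0.32, and groups did not overlap for 4, all higher, against 5.26% of all genes in that direction. None of the 13 passed the threshold. The counts without overlap were 5 of 13 without library 3, against 7.55% of all genes, and 4 of 13 without library 1, against 11.9%.

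The start site windows of the metallothionein pair are shown because both genes were higher without overlap. Capitals mark the core of the metal response element, TGCACNC or TGCGCNC on either strand, which the zinc-sensing factor MTF1 binds. The Mt1 window is chr8:94178839-94179138 and the Mt2 window chr8:94172368-94172667, both on the plus strand (RefSeq, GRCm38.p6).
Mt1: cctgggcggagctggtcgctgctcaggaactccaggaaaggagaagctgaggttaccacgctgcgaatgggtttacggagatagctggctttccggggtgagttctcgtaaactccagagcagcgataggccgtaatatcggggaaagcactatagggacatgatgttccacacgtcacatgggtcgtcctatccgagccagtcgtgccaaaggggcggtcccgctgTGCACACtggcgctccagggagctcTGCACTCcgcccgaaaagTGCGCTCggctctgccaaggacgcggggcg
Mt2: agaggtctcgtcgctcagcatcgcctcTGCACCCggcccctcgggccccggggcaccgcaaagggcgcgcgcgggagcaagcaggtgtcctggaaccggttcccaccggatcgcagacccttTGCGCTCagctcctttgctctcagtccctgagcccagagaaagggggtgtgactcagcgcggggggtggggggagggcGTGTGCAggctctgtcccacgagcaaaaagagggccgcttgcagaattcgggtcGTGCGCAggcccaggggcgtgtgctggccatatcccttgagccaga

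Mt1 held 3 such cores and Mt2 held 4. In Mt1 they lay at bases -23 to -17, 2 to 8 and 20 to 26 from the start site. Those of Mt2 lay at -223 to -217, -128 to -122, -50 to -44 and 4 to 10. The windows were 44.1% identical, no more than those of Cyp3a11 and Cyp2c55 (46.8%). At least 1 core was in 25.7% of the 32851 windows and 3 or more in 1.97%. These matches were not tested as binding sites.

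Genes of antimicrobial defence and the acute phase were higher by value in most members. Of 18 tested, 15 were higher and 3 lower, the median log2 difference was 0.54, and groups did not overlap for 7, all higher, against 5.26% of all genes. None passed the threshold. Saa1, an acute phase lipoprotein made by enterocytes in response to microbes, was at 162, 189, 73.5 and 105 FPKM in KO mice and at 1419, 734 and 342 FPKM in uninjected mice (log2 difference 2.51, adjusted p = 0.665). Library 1 was the highest and library 4 the lowest of the 3, and each was above all KO values. The lectins Reg3b and Reg3g, which are secreted into the gut lumen and bind bacteria, were among the most abundant transcripts. Reg3g was at 8907, 10366, 4714 and 9589 FPKM against 24929, 12947 and 19662 FPKM, and Reg3b at 14353 to 25446 FPKM against 51270, 40413 and 46954 FPKM. Socs3, a feedback inhibitor of STAT3 signalling, was at 24.7, 22.5, 11.1 and 25.4 FPKM in KO mice and at 67.5, 48.4 and 54.5 FPKM in uninjected mice. Its relative Socs1, which is not in the list and restrains cytokine signalling through JAK kinases, was at 8.22 to 12.5 FPKM and at 45.6, 44.6 and 23.5 FPKM (log2 difference 1.70, adjusted p = 0.636). Dmbt1 and Saa3, further defence genes of the list, were also higher without overlap. KO library 3 had the lowest value of the KO libraries for Saa1, Reg3g, Reg3b, Socs3 and Dmbt1. Without library 3 of the uninjected group, 12 of 18 were higher and the median was 0.255; without library 1, 15 of 18 were higher and the median was 0.84.

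The remaining genes with the smallest unadjusted p and no overlap had mixed roles, and none passed the threshold, with adjusted p between 0.636 and 0.665. Higher were 1600029D21Rik (Plet1), a surface protein of epithelial progenitors, at 1.46 to 6.40 FPKM in KO mice and 21.7, 15.5 and 26.2 FPKM in uninjected mice, and Prss27, a serine protease, at 3.34 to 8.39 and 31.7, 25.8 and 17.2 FPKM. Aldh4a1, a mitochondrial enzyme of proline breakdown, was at 13.4 to 23.2 FPKM in KO mice and at 51.7, 93.5 and 34.7 FPKM in uninjected mice. BC021767, which lies near the selenium-binding protein gene Selenbp2 on chromosome 3, was at 0.711 to 1.95 FPKM and at 5.26, 5.36 and 4.38 FPKM. B230312A22Rik was listed at 0 in KO libraries 1 and 4 and reached 1.94 FPKM in KO library 2, against 13.5, 36.8 and 2.75 FPKM.

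Lower by value were Bex1, Samd8, Rgs13, Cldn8, Lrat, Sgk1, Hao2 and Zfp62. Bex1, a small adaptor protein best known in neural cells, was at 16.98 to 29.2 FPKM in KO mice and at 7.09, 5.70 and 9.52 FPKM in uninjected mice. Cldn8, a sealing claudin of tight junctions, was at 2.90 to 4.96 FPKM and at 0.356, 0.216 and 1.80 FPKM. Cldn2, which forms a paracellular pore for cations and is known as a vitamin D-responsive gene, was at 87.4, 91.4, 90.9 and 108 FPKM in KO mice and at 65.5, 13.9 and 71.9 FPKM in uninjected mice, all lower, with library 3 the lowest. Of the 17 tight junction genes tested, 9 were higher and 8 lower, and groups did not overlap for 4, 2 in each direction, against 5.26% of all genes higher and 3.35% lower. Sgk1, a kinase induced by glucocorticoids and aldosterone that raises sodium uptake, was at 63.3 to 141 FPKM and at 53.0, 21.4 and 23.4 FPKM. Lrat, which esterifies retinol for storage, was at 3.07 to 4.91 FPKM and at 1.51, 1.17 and 1.54 FPKM. Samd8, a sphingolipid enzyme, was listed at 0 in uninjected libraries 1 and 3 and was at 1.15 FPKM in library 4, against 2.19 to 3.86 FPKM in KO mice.

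**Figure D3:**
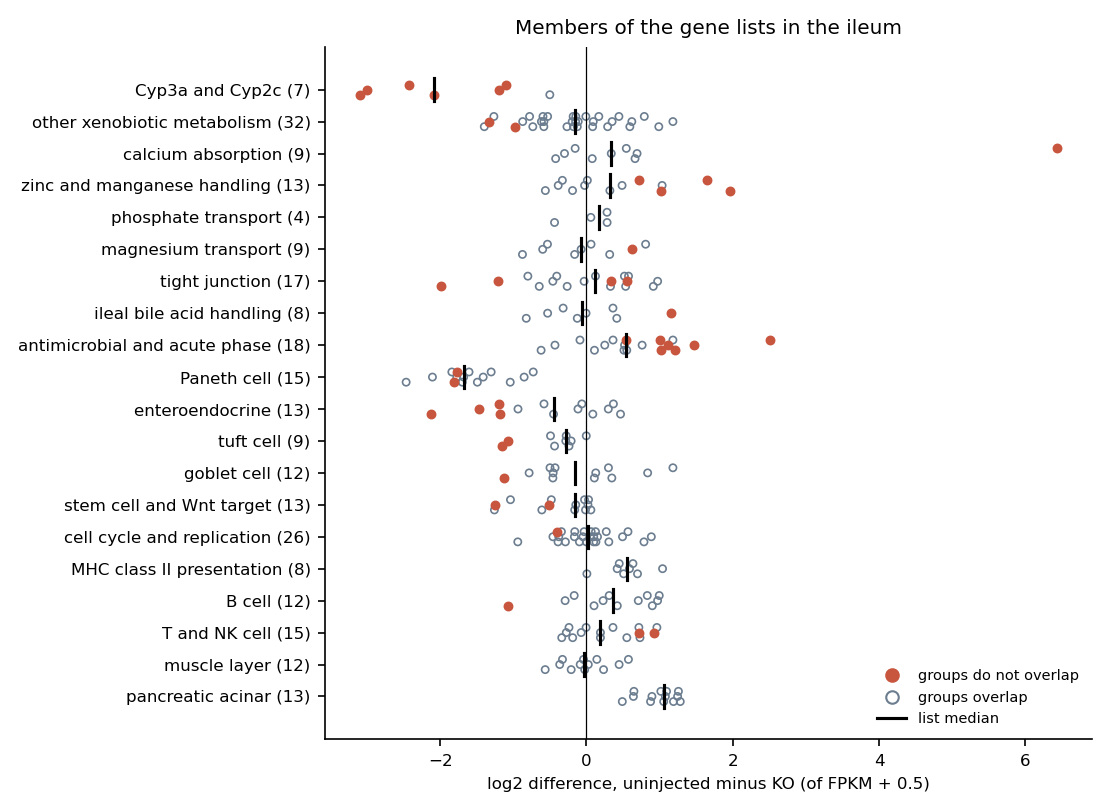
Log2 difference between uninjected and KO ileum (x axis, of FPKM + 0.5) for the tested members of 20 gene lists (rows, with the number of members drawn from), where filled red points are genes whose groups do not overlap, open points are genes whose groups overlap and black bars are list medians. The Cyp3a and Cyp2c genes have a median of -2.09 and the Paneth cell genes of -1.68.

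Markers of secretory cells differed by cell type and by library. Of the 12 goblet cell genes tested, 6 were higher and 6 lower (median log2 difference -0.16), and the list summed to 16990 to 37930 FPKM in KO mice and to 27400, 39660 and 16220 FPKM in uninjected libraries 1, 3 and 4. In bulk RNA, fewer cells of a type and less RNA per cell cannot be told apart. All 15 genes tested of Paneth cells, which secrete antimicrobial peptides at the crypt base, had negative log2 differences with a median of -1.68, groups did not overlap for 2 of them, against 3.35% of all genes in that direction, and none passed the threshold. Their summed level was 98590 to 155900 FPKM in KO mice and 6934, 61160 and 121700 FPKM in uninjected libraries 1, 3 and 4, so library 4 was within the KO range. Lyz1, the lysozyme of Paneth cells, was at 5491 to 8297 FPKM in KO mice and at 523, 2076 and 10636 FPKM in uninjected mice. Mmp7, the protease that activates defensins, was at 180 to 346 FPKM and at 13.1, 91.8 and 513 FPKM, and Ang4, a bactericidal ribonuclease, at 1145 to 1587 FPKM and at 30.4, 377 and 1247 FPKM. Library 1 was the lowest for each of these, and the median of the list was -0.55 without it, with 13 of 15 lower, and -1.95 without library 3. The defensin copies are near-identical, so the values of single members are uncertain.

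Of 13 enteroendocrine genes tested, 9 were lower and 4 higher with a median log2 difference of -0.45, and groups did not overlap for 4, all lower, against 3.35% of all genes. Without library 1, 7 were lower and 6 higher with a median of -0.03, and without library 3 all 12 then tested were lower with a median of -0.78. The sum of the list was 428 to 1026 FPKM in KO mice and 509.6, 1177 and 375.5 FPKM in uninjected libraries 1, 3 and 4, so 2 of the 3 were not below the KO range. The 4 genes were Chgb, a granule protein, at 45.5 to 65.9 FPKM in KO mice and 5.33, 7.84 and 40.3 FPKM in uninjected mice; Neurod1, a factor of endocrine differentiation; Tph1, the enzyme of serotonin synthesis; and Gcg, the precursor of GLP-1, at 46.1 to 57.8 and 10.4, 23.2 and 44.8 FPKM. Nts, the precursor of the ileal hormone neurotensin, overlapped between groups, at 68.7 to 168 FPKM and at 72.1, 50.1 and 52.4 FPKM. All 9 tuft cell genes tested were lower by log2 difference, with a median of -0.28, and groups did not overlap for Rgs13 and Siglec5, 2 of 9 against 3.35% of all genes in that direction. Without library 3 the median was -0.49 and 6 of 9 did not overlap, against 4.88% of all genes, and without library 1 the median was -0.35 with 8 of 9 lower. Of 13 stem cell and Wnt target genes tested, 10 were lower and 3 higher (median -0.16), whereas 6 were lower and 7 higher without library 1 (median 0.07). Among them Lgr5, a receptor of stem cells, and Ascl2, a factor of the same cells, were at 3.04 to 4.02 against 1.15, 0.499 and 3.44 FPKM and at 3.90 to 7.43 against 0.655, 3.78 and 2.22 FPKM. No member of these 3 lists passed the threshold.

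**Figure D4:**
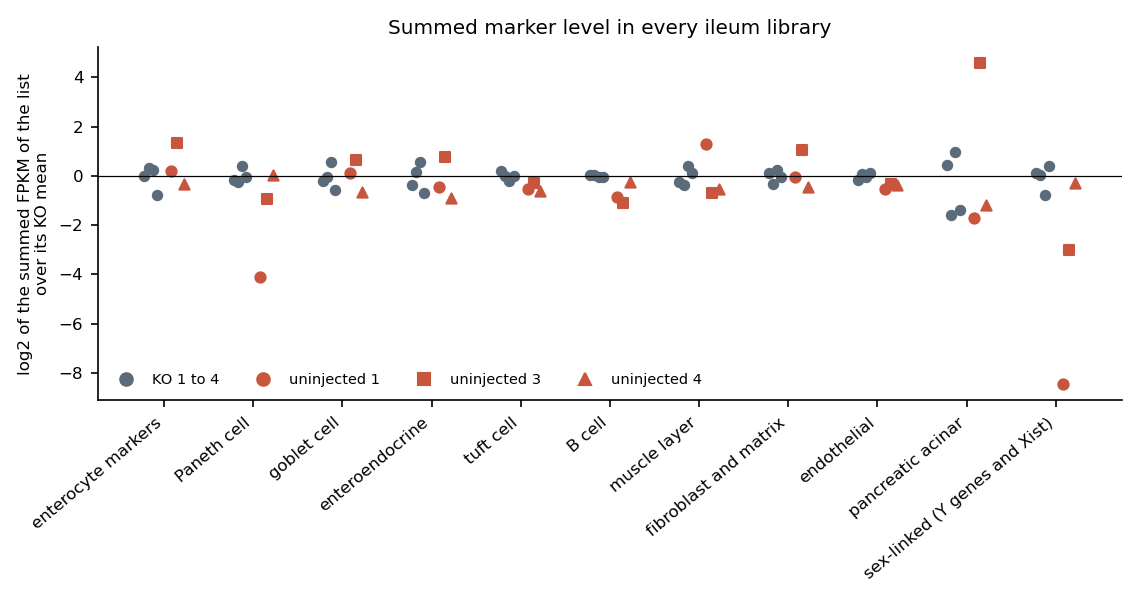
Log2 of the summed FPKM of each marker list over its mean in the KO libraries (y axis) for 11 lists (x axis), with grey points for KO libraries and red circles, squares and triangles for uninjected libraries 1, 3 and 4. Library 1 is low for the Paneth cell list (6934 FPKM) and the sex-linked list, and library 3 is high for the pancreatic acinar list (955.6 FPKM against at most 77.5 FPKM in the others).

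Marker sums of some other cell types stood out in single libraries, whereas the B cell and endothelial sums were below all KO values in every uninjected library. The 14 pancreatic acinar genes summed to 955.6 FPKM in uninjected library 3 and to 12.2 to 77.5 FPKM in the other 6, and the median log2 difference was 1.06 over the 13 tested with library 3 and -0.85 over the 9 tested without it. Muscle layer genes summed to 4200 FPKM in uninjected library 1 and to 1053 to 2238 FPKM in the others. All 8 genes of MHC class II presentation had positive log2 differences (median 0.55), but groups overlapped for each. Without library 3 the median was 0.20 with 2 of 8 lower, and their sum was 11990 FPKM in library 3 against 3907 to 6179 FPKM elsewhere. Of the 12 B cell genes, 9 were higher and 3 lower (median log2 difference 0.37), and none passed the threshold. Without library 3, 11 of 12 were higher (median 0.66), and without library 1, 6 were higher and 6 lower (median 0.03). Against the direction of most of the list, Igj, the joining chain of secreted antibodies, was at 876 to 979 FPKM in KO mice and 364, 314 and 755 FPKM in uninjected mice. It was the 1 member without overlap, against 3.35% of all genes in that direction. The B cell sum, most of it from Igj, was 986.3 to 1055 FPKM in KO mice and 560.8, 472 and 859.8 FPKM in uninjected libraries 1, 3 and 4. The endothelial sum was 32.79 to 39.88 FPKM in KO mice and 25.2, 28.76 and 28.12 FPKM in the same uninjected libraries. Of 9 endothelial genes tested, 6 were lower and 3 higher. Groups did not overlap for 2 of the 9, both lower, against 3.35% of all genes, and none passed the threshold. The part of these lists in the other results was not tested.

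Bile acid genes of the ileal enterocyte overlapped between the groups for all but 1 of the 8 tested. Fabp6, the ileal bile acid binding protein, was at 13679 to 35617 FPKM in KO mice and at 37257, 14123 and 15131 FPKM in uninjected mice, and its log2 difference of -0.32 carried an adjusted p of 0.799. The bile acid transporter Slc10a2 was at 124 to 168 FPKM and at 278, 15.5 and 116 FPKM, and Fgf15, the ileal hormone that represses bile acid synthesis in the liver, at 6.21 to 27.8 FPKM and 43.1, 12.9 and 17.5 FPKM. Of the 8, 3 were higher and 5 lower, and the gene without overlap was Abcc3, a basolateral exporter, at 2.31 to 7.25 FPKM against 10.6, 14.7 and 8.13 FPKM (1 of 8, against 5.26% of all genes higher). The balance of the list turned with single libraries: without library 3, 7 of 8 were higher (median 0.36), and without library 1, 7 of the 9 then tested were lower (median -0.56). The phosphate list had 3 higher and 1 lower of 4, the magnesium list 4 and 5 of 9, and the iron list 7 and 2 of 9. Upp1, which cleaves uridine, was at 394 to 640 FPKM in KO mice and at 1424, 1971 and 937 FPKM in uninjected mice. Cdx2, the factor whose control region drives the transgene, was at 112 to 140 FPKM and at 161, 216 and 153 FPKM, without overlap (log2 difference 0.46, adjusted p = 0.665).

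The same contrast was made in the colon of the series, with 4 uninjected and 4 KO libraries, to ask whether any difference was larger in 1 tissue. The colon KO mice were aged 9 to 11 weeks and the colon uninjected mice 9 to 10 weeks. The labels do not say whether a mouse gave both tissues. The fit took all libraries as independent, so its SEs and p-values may ignore a pairing. None of 11445 genes passed the threshold for the ileum effect minus the colon effect (0%), and 124 (1.08%) had an unadjusted p under 0.05. Without uninjected library 3, 2 genes passed, and 339 did in the fit with weights for each library. S100g had nearly the same log2 difference in both, 6.43 in ileum and 6.52 in colon (difference -0.08 ± 1.12 SE, limma adjusted p = 1.00). Cyp2c55 was at 1018 to 1714 FPKM in KO colon and 346.8 to 1633 FPKM in uninjected colon, so its levels were higher there and the groups overlapped. Its colon log2 difference was -0.69, and the ileum effect minus the colon effect was -2.41 ± 0.57 (SE, adjusted p = 1.00). Trpv6 was at 0.0906 to 0.699 FPKM in KO colon and at 75.3 to 376 FPKM in uninjected colon, far above its level in uninjected ileum, in tables scaled separately. Selenbp2 had log2 differences of 0.84 in ileum and 3.13 in colon (adjusted p of the difference = 0.166). 5033404E19Rik had 5.51 and 2.51, Bex1 -1.52 and 0.24, and 1600029D21Rik 2.31 and -0.98, none past the threshold of the difference.

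**Figure D5:**
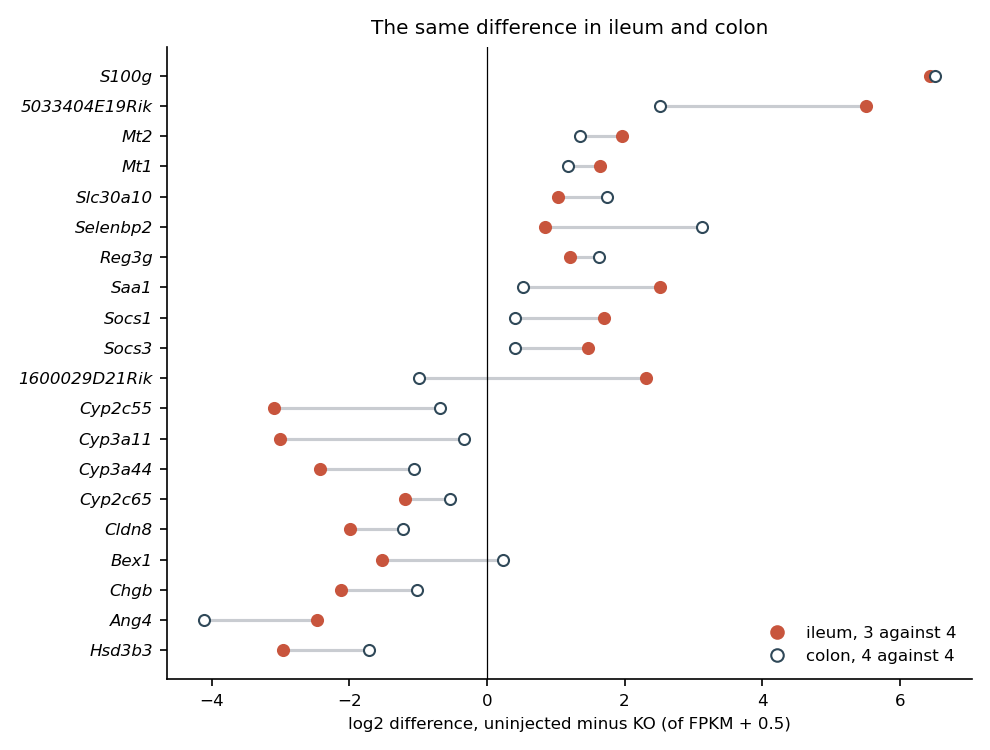
Log2 difference between uninjected and KO mice (x axis, of FPKM + 0.5) for 20 genes (rows) in ileum (filled red points, 3 against 4 libraries) and colon (open points, 4 against 4), joined by a grey line for each gene. S100g lies at 6.43 and 6.52, and Cyp2c55 at -3.09 and -0.69.

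Ileum of transgenic mice aged 9 weeks and treated with 1,25D3, injected 3 times at 1 ng per g, was held in another table. The KO libraries in it were the same, from mice aged 9 to 11 weeks, and the treated values are given as a description. S100g was at 425, 898 and 1543 FPKM there, with 2 of the 3 values between the lowest and the highest of the uninjected mice and 1 below, whereas Cyp24a1 was at 4.31, 12.2 and 19.5 FPKM, above all uninjected values. Cyp2c55 was at 5.90, 5.50 and 19.9 FPKM, Cyp3a11 at 5.21, 16.3 and 9.84 FPKM, and Cyp3a44 at 0.0599, 0.276 and 1.08 FPKM. 5033404E19Rik was at 8.90, 22.1 and 81.6 FPKM, Mt2 at 156, 215 and 459 FPKM and Socs3 at 69.4, 43.0 and 47.5 FPKM. Lyz1 was at 5785, 9162 and 5429 FPKM, against 5713 to 8749 FPKM in the KO libraries of that table. The KO libraries differ between the tables by a constant factor of 1.04 to 1.05 for each, so levels are nearly on the same scale.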

How the data were processed

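Poly(A) RNA was sequenced, per the labels' protocols, and the authors deposited FPKM per gene in tables of 2 groups, each scaled over its own libraries. The labels' protocols name CLC Genomics Workbench for mapping. In the submitters' processing notes stand the build mm9 and the tools DESeq2, DESeq 1.14.0 and kallisto 0.45.0, without a role for any. The annotation behind the tables, and any filter, is not given in the sources used here. FPKM carry no depth, but low values were whole multiples of a step, and 85.4% of 18070 genes above 0 came out as whole reads (tolerance 0.01), from which depth was estimated.

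The main test was limma 3.58.1 in R 4.3.3 on log2(FPKM + 0.5), with an intensity trend, two-sided, for genes averaging 1 FPKM or more, with Benjamini-Hochberg adjustment over all genes tested and a threshold of 0.05. The pseudocount understates differences of low genes. The tissue difference was 1 limma fit of 4 groups, and the qPCR panel and Vdr had exact permutation tests of the mean. Sex could not be a covariate, since uninjected columns are not tied to samples. The fits were tested on simulated data with the same spread in every library, which does not cover an outlying library such as uninjected library 3. Tables were read with Python 3.11.15 and pandas 2.3.3.

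The comparison and the 46 gene lists were chosen with earlier results of these data known. Of 694 list entries, 683 were found, 8 by an older symbol. Genes were named by rule: the panel and Vdr, genes past the threshold, up to 10 in each direction with the smallest p without overlap and at least 2 FPKM in the higher group, list members with the smallest p (up to 4 of each list, here the first of a list and those with p under 0.05), and sex-linked checks. Cyp3a13, Cyp3a25, Cyp2c68, Nr1i2, Reg3b, Dmbt1, Lyz1, Mmp7, Nts, Fabp6, Slc10a2, Fgf15, Atp2b1 and Upp1 (and Dbp, Tef, Per2 and Retnlb in the closing section) were added after their values were seen. Coordinates are mm9, matched by symbol, and promoter sequences are from RefSeq (GRCm38.p6). Replicate numbers were taken from the columns and were not used to pair the samples in the main fit.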

Additional observations from a re-analysis of the deposited data

Results flagged for a closer look

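In the KO group, 5 of the 115 genes chosen by the naming rule or added to it had 1 library far from the other 3 by Dixon's test at the 95% level, which chance alone flags in about 1 of 20 groups. For Cyp24a1, KO library 4 was at 0.0117 FPKM and the other 3 were listed at 0. For 5033404E19Rik, KO library 3 was at 0.214 FPKM against 0 to 0.0358 FPKM. For B230312A22Rik, KO library 2 was at 1.94 FPKM against 0 to 0.132 FPKM. For the defensin Defa3, KO library 3 was at 4390 FPKM against 2476 to 2593 FPKM, and for the T cell gene Cd5 the same library was at 1.32 FPKM against 2.34 to 2.46 FPKM.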

How the results depend on the processing

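The count of 1 gene past the threshold became 2 with a pseudocount of 0.1 and 2 with a minimum mean of 5 FPKM. It was 314 with weights for each library, of which 145 were higher and 169 lower. These weights were 3.59, 0.0917 and 0.446 for uninjected libraries 1, 3 and 4, so library 1 dominated its group in that fit. The count was 0 with limma's voom on recovered reads (9449 genes) and 0 with GC and length trends removed, an alternative added after the data were seen. Leaving out 1 library gave 0 to 5 genes. No gene passed without any 1 of KO libraries 1 to 4 or without uninjected library 3, 3 passed without uninjected library 1 (Cyp2c55, 5033404E19Rik and Hsd3b3), and 5 without uninjected library 4 (Cyp2c55, S100g, Chgb, Samd8 and 5730469M10Rik). Cyp2c55 had an adjusted p of 0.0745 with voom, 0.115 with GC and length trends removed and 0.0510 with no filter on low values, where Gnb4 alone passed. The other scalings, the pseudocount of 1 and the fit without an intensity trend each called Cyp2c55.

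With a replicate block on the column numbers the count was 0 genes and Cyp2c55 had an adjusted p of 0.152. Deviations of same-numbered libraries correlated at -0.19, 0.27 and 0.59 for numbers 1, 3 and 4, and those of differently numbered libraries at -0.48 to 0.18. The values for numbers 3 and 4 were thus above all of the latter and that for number 1 was not. They do not settle whether the numbers pair the samples, and the main fit used no pairing.

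The tissue difference had 1 gene with no filter, 339 with weights for each library and 0 to 2 with 1 library left out, the 2 being without uninjected library 3. Some log2 differences that had not passed the threshold turned sign. With weights these were Apoa4 (1.70 to -0.025), Cubn (-1.44 to 0.082), Cel (1.02 to -0.22), Slc46a1 (0.86 to -0.13), Slc10a2 (-0.82 to 0.80), S100a8 (0.51 to -0.11), Atp2b1 (-0.42 to 1.24), Slc37a2 (-0.37 to 0.29) and Fabp6 (-0.32 to 0.31). With 1 library left out, the range was -0.65 (without KO library 1) to 0.068 (without KO library 3) for Slc37a2, -0.92 (without uninjected library 4) to 0.081 (without uninjected library 3) for Cyp3a13, -1.72 to 0.34 for Slc10a2 and -1.34 to 0.43 for Atp2b1 (without uninjected libraries 1 and 3 for both), and -0.14 (without uninjected library 1) to 0.72 (without uninjected library 3) for Fgf15, which was also below 0 without KO library 3 (-0.085). The cause of these shifts was not tested. At 10.4 to 43.7 M recovered reads, levels near 0, such as those of Cyp24a1 in KO mice, rest on few recovered reads.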

Other observations

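Genes of the circadian clock stood out in uninjected library 1. Dbp, a transcription factor with a strong daily rhythm, was at 95.5 FPKM there, at 2.92 and 14.3 FPKM in uninjected libraries 3 and 4, and at 2.07 to 25.6 FPKM in KO mice. Tef was at 37.8 FPKM in library 1 and at 4.67 to 14.4 FPKM in the other 6, and Per2 at 11.2 FPKM against 0.747 to 5.73 FPKM. Nr1d1, a repressor of the clock, was at 68.7, 50.6 and 45.5 FPKM in uninjected mice and at 19.96 to 35.2 FPKM in KO mice, without overlap. The hour of collection is not given in the sources used here.

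Library 1 was also high for Retnlb, a goblet cell peptide, at 277 FPKM against 3.25 to 10.6 FPKM in the other 6 libraries. Hsd3b3, a steroid dehydrogenase, was at 11.0 to 25.1 FPKM in KO mice and at 10.8, 0.661 and 0.149 FPKM in uninjected mice, and Slc2a5, the fructose transporter, at 9.05 to 18.2 FPKM and 33.7, 22.5 and 26.2 FPKM. Neither passed the threshold (limma adjusted p = 0.665 for both).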
